A study of Mus musculus with 14 samples.

Results

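The genes described here are 10 members of the transforming growth factor-β (TGF-β) pathway, followed through SOX9 re-activation in mouse epidermal stem cells (EpdSCs), the basal stem cells that renew the skin surface. They were chosen by gene symbol, as 10 of the 54332 genes of the RNA table: the ligand genes Tgfb1, Tgfb2, Tgfb3 and Inhba, the receptor genes Tgfbr1, Tgfbr2 and Tgfbr3, and the signal transducer genes Smad2, Smad3 and Smad4. All 10 had a mean over the libraries of at least 1 TPM (transcript abundance corrected for transcript length and scaled to the same total in each library), the minimum for testing, which 13110 genes met.

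RNA-seq was made from sorted back-skin EpdSCs of CD1 mice, labelled male, in 10 libraries: 2 replicates each before doxycycline (D0) and at 1, 2, 6 and 12 weeks of SOX9 induction (W1, W2, W6 and W12). Every group, D0 included, carried K14rtTA; TRE-myc-Sox9, in which the Krt14 promoter drives a doxycycline-dependent activator in skin epithelium and this activator switches on a MYC-tagged Sox9. D0 cells came from mice at postnatal day 21, when doxycycline was started, and W1, W2 and W6 cells from mice at postnatal days 28, 35 and 63. W12 cells came from newborn transgenic skin grafted onto immunocompromised female Nude hosts, which was left to heal before induction. The sort kept cells negative for CD31, CD45, CD117, CD140a and CD34 and high for CD49f and Ly6A. No RNA of mice without the transgene was analysed here, so induction cannot be told apart from the age of the mice, nor W12 from grafting. The study describes both libraries of a timepoint as biological replicates, and the number of mice behind each is not given in the sources used here.

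TGF-β ligands and activins are secreted dimers that bind a type II receptor, which then phosphorylates a type I receptor. The type I receptor phosphorylates SMAD2 and SMAD3, which join SMAD4 and enter the nucleus to regulate genes. In skin the pathway is known for restraining the division of keratinocytes, for roles in wound repair and the hair cycle, and for acting both against and in favour of skin tumours.

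The labels were checked first. The MYC-SOX9 transgene was listed at 89.6 and 45.6 TPM at D0, at 3387 and 3414 TPM at W1, and at 606 and 903 TPM at W12, so induced libraries were above both D0 libraries. D0 replicate 2 went against its male label, with 0.0278 TPM of the Y-linked Ddx3y and 4.61 TPM of Xist. The W12 libraries also went against the label in part, with Ddx3y at 10.97 and 12.9 TPM together with Xist at 5.51 and 3.50 TPM. The libraries other than these and D0 replicate 2 held Ddx3y at 21.9 to 32.7 TPM and Xist at most at 0.0066 TPM. The W12 skin lay on female hosts, and the source of its Xist was not tested. Sex therefore differed between libraries, and it cannot be told apart from W12. Of the defining basal keratin genes, Krt5 was lowest in W12 replicate 2, at 7343 TPM, and Krt14 in W2 replicate 1, at 19997 TPM. The summed TPM of 6 endothelial markers ranged from 0.977 to 4.62 in the D0 to W6 libraries and was 90.5 and 210.8 at W12, where Pecam1, which encodes the CD31 that the sort excluded, was at 26.1 and 59.8 TPM. Cd34, whose product the sort also excluded, was at 0.047 to 0.383 TPM up to W2, at 2.66 and 5.04 at W6 and at 16.5 and 32.0 at W12, a log2 rise from D0 of 1.96 at W6 (limma adjusted P = 0.00442) and 4.31 at W12 (adjusted P = 5.77e-05). Of the markers kept, Ly6a changed by -1.22 at W2 (adjusted P = 0.00905), -0.94 at W6 (adjusted P = 0.0146) and 0.80 at W12 (adjusted P = 0.0211). The W12 value was 0.59 without D0 replicate 2 and did not pass. Itga6, which encodes CD49f, changed by -1.15 at W6 (adjusted P = 0.00335) and did not pass at the other timepoints. Calls against D0 are given also without D0 replicate 2 for the 10 genes, for other named genes where the call was lost without it, and for counts of other lists where it changed them.

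Of the 10 genes, 8 varied over the time course by the moderated F test of limma over the 4 contrasts with D0 (adjusted P under 0.05), against a background of 57.5% of all genes tested. Tgfbr1 (adjusted P = 0.675) and Smad2 (adjusted P = 0.258) did not pass. The count of 8 was lower under some alternatives, which are given in the closing section. The 8 did not share a time course: Inhba reached its highest level at W12, Tgfb3 at W2, and Tgfbr2 and Smad3 were highest at D0. Changes are differences of log2(TPM + 1), on which genes of low level appear to change less than they do in TPM.

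**Figure D1:**
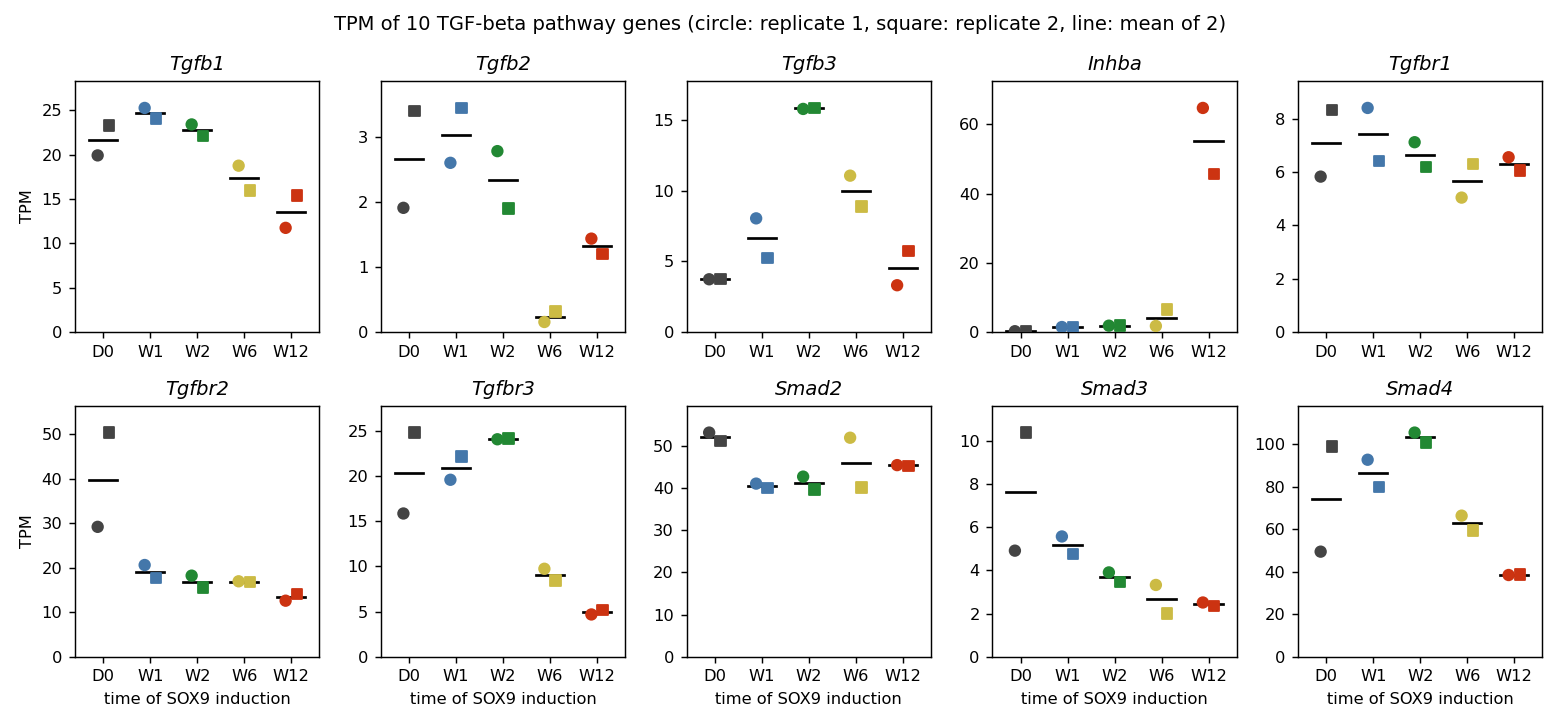
TPM on the vertical axis, from 0, of each of the 10 genes in each library against timepoint, with replicate 1 as circles, replicate 2 as squares and the mean of 2 as a line. Inhba stood at 64.7 and 45.7 TPM at W12 and at most at 6.47 TPM in any other library, Tgfb3 peaked at W2, and the D0 libraries of Tgfbr2, Smad3 and Smad4 lay far apart from each other.

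Promoter sequence is shown for the gene with the largest rise (Inhba) and for a receptor gene and a SMAD gene that were lower at W12 than at D0 (Tgfbr2 and Smad3). Each run is the 250 bases before the gene's start in the RefSeq table of build GRCm38.p6, read along the gene's strand. They lie at chr13:16011601-16011850 (plus strand) for Inhba, chr9:116175364-116175613 (minus strand) for Tgfbr2 and chr9:63757995-63758244 (minus strand) for Smad3. Capitals mark matches, on either strand, to the letters searched: the AP-1 motif TGANTCA, the SOX motif ACAAT and the SMAD motif CAGAC, which do not overlap in these windows.
Inhba: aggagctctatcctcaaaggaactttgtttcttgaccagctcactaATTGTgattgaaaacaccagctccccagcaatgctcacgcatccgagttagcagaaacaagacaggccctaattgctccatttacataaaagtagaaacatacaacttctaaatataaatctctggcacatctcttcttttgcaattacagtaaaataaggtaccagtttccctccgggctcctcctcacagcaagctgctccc
Tgfbr2: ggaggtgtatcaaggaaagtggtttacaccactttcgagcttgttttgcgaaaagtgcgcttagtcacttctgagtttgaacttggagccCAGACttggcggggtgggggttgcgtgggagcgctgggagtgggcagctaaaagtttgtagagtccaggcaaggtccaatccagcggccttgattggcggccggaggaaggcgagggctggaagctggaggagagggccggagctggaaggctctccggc
Smad3: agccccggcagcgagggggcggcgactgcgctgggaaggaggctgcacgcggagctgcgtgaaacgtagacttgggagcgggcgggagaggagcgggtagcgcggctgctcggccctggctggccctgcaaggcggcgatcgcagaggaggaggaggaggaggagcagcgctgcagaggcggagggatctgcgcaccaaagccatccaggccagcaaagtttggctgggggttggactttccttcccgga
The Inhba window held 1 SOX match, read there as ATTGT, the Tgfbr2 window 1 SMAD match, and the Smad3 window none. Of all 32851 promoter windows of this length, 27.7% held the SOX letters, 42.2% the SMAD letters and 6.75% the AP-1 letters, so such matches are common. G and C made up 43.2% of the Inhba window, 58.4% of the Tgfbr2 window and 69.2% of the Smad3 window. The table has entries for 6 of the 10 genes, with 2 windows for Tgfbr1. The windows of Tgfb1, Tgfb2 and Tgfbr1 held no AP-1 or SOX match, whereas the Tgfb2 window held 2 SMAD matches and 1 of the 2 Tgfbr1 windows held 1.

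Among the ligands, Inhba rose most. It encodes the βA chain of activin A, a ligand that signals through activin receptors and the same SMAD2 and SMAD3 as TGF-β, and it lies on chromosome 13 at 16011851 to 16031621 (GRCm38). Its TPM was 0.272 and 0.308 at D0, 1.48 and 1.46 at W1, 1.87 and 1.88 at W2, 1.78 and 6.47 at W6, and 64.7 and 45.7 at W12. Both W12 libraries were above every other library, and W2 and W6 overlapped. The mean went from 0.290 ± 0.0252 TPM at D0 to 55.2 ± 13.4 TPM at W12 (SD, n = 2), a ratio of 190.3. On the log2 scale the rise was 5.42 ± 0.40 (SE; 95% interval 4.51 to 6.34; limma adjusted P = 3.57e-05), the 71st highest of 13110 genes. It was 5.44 without D0 replicate 2 (adjusted P = 0.000615).

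In TPM most of the Inhba rise took place between W6 and W12, but as a ratio of mean TPM this step (13.37) was no larger than that from D0 to W6 (14.24). The log2 change from W6 to W12 was 3.60 ± 0.40 (limma adjusted P = 0.000765). The rise from D0 to W6 was 1.82 (adjusted P = 0.0102), or 1.84 without D0 replicate 2 (adjusted P = 0.0483) and 1.11 without W6 replicate 2 (adjusted P = 0.0172), and rested unequally on its libraries, since W6 replicate 1 was below both W2 libraries. Earlier, the values from D0 to W1 (0.94, adjusted P = 0.186) and to W2 (1.16, adjusted P = 0.0871) did not pass the test, although every W1 and W2 library was above both D0 libraries. With a pseudocount of 0.1, which gives low values more weight, the W1 value was 2.01 (adjusted P = 0.0427) and the W2 value 2.34 (adjusted P = 0.0186). The fit to only the 4 libraries compared also called W1 (adjusted P = 0.0455) and W2 (adjusted P = 0.0226), but not W6 (adjusted P = 0.0867). From W2 to W6 the value was 0.67 (adjusted P = 0.269).

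Some markers of other cell types were also high at W12. All 4 endothelial markers tested, of 6 listed, were higher at W12 than at D0 (background 17.9% higher), but this count is no test. Pecam1, Emcn and Tek, at most at 1.14 TPM in any library before W12, reached the minimum for testing only through their W12 values. Cdh5, at 0 in the 6 libraries from D0 to W2, was at 1.61 and 3.64 TPM at W12. The endothelial sum was higher in W12 replicate 2 than in replicate 1, and Inhba was higher in replicate 1. The summed TPM of 12 immune markers was 6.77 to 31.1 before W12 and 107 and 129 at W12, nearly all of it Cd74, while the pan-leukocyte marker Ptprc (CD45) was at 0.018 and 0.327 TPM. The summed TPM of 8 fibroblast markers was 52.3 in W6 replicate 2, the library with more Inhba at W6, against 1.72 in W6 replicate 1. Nearly all of that was Dcn, at 51.2 TPM, and Col1a1 was at 0.143 TPM. At W12 the fibroblast sum was 13.8 and 28.1. The sum of 8 melanocyte and Schwann cell markers was 13.9 and 13.0 at W12, no higher than the 14.0 of W6 replicate 2, and 1.68 to 6.97 in the other libraries. The part of these cells in the Inhba values was not tested, and the order of the 2 libraries of a timepoint cannot decide it. The W12 libraries also held Xist beside Y-linked RNA, as given above. In bulk RNA a change in the share of a cell type cannot be told apart from a change in RNA per cell.

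**Figure D2:**
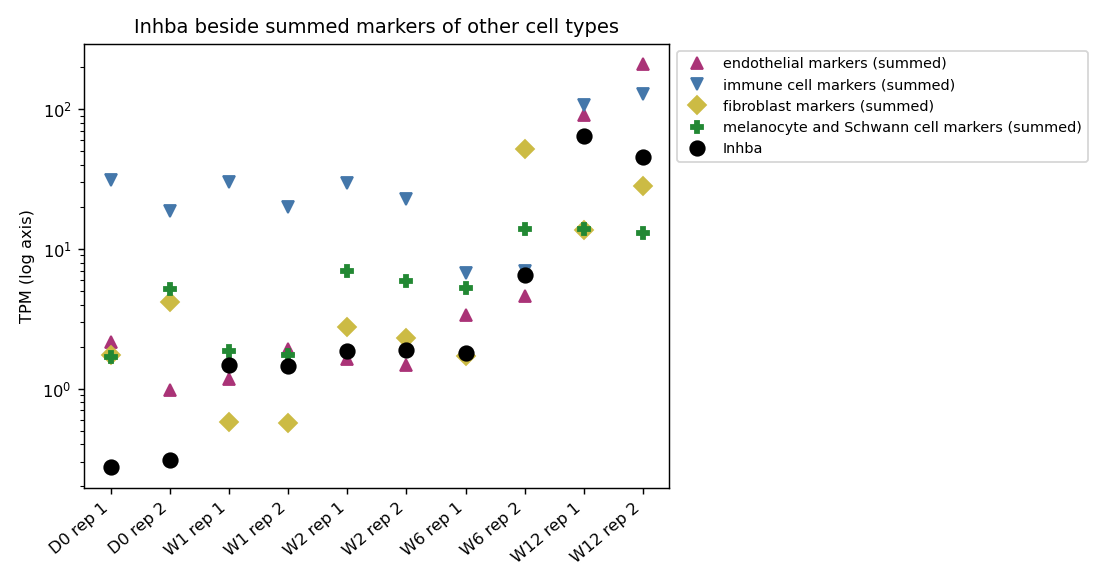
TPM on a log axis of Inhba (circles) and of the summed endothelial (triangles), immune (inverted triangles), fibroblast (diamonds) and melanocyte and Schwann cell (plus signs) markers in each library. Inhba and the endothelial and immune sums were highest in the W12 libraries, whereas the fibroblast sum was highest in W6 replicate 2.

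Tgfb1, the most abundant of the 3 TGF-β ligand genes in these cells, lies on chromosome 7 at 25687002 to 25705077. Its TPM was 19.9 and 23.3 at D0, 25.3 and 24.1 at W1, 23.4 and 22.1 at W2, 18.8 and 16.0 at W6, and 11.8 and 15.4 at W12. W12 was below every other timepoint and D0 overlapped with W2. Tgfb1 fell by 0.64 on the log2 scale from D0 to W12 (SE 0.18; limma adjusted P = 0.0189). Without D0 replicate 2 the value was -0.53 (adjusted P = 0.0915) and without W12 replicate 1 the adjusted P was 0.13, so this call rested on each of these libraries. In all, 5 of 13 alternatives ended it, with adjusted P from 0.0631 to 0.13, among them the correction for length and GC content (-0.37, adjusted P = 0.0861).

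Tgfb3, the TGF-β isoform that is also known for its part in palate fusion, lies on chromosome 12 at 86056745 to 86079041. It was at 3.74 and 3.76 TPM at D0, 8.05 and 5.23 at W1, 15.8 and 15.9 at W2, 11.1 and 8.88 at W6, and 3.32 and 5.75 at W12. The level rose to W2 and came back, with W12 overlapping both D0 and W1. The log2 rise from D0 was 1.82 ± 0.27 (SE) at W2 (limma adjusted P = 0.00292) and 1.20 at W6 (adjusted P = 0.0103), and without D0 replicate 2 it was 1.83 (adjusted P = 0.0165) and 1.20 (adjusted P = 0.0469), whereas W1 (0.66, adjusted P = 0.16) and W12 (0.19, adjusted P = 0.599) did not pass. It then fell by 1.02 from W6 to W12 (adjusted P = 0.0297), a call lost without W6 replicate 1 (adjusted P = 0.115) or W12 replicate 1 (adjusted P = 0.202). After each library was corrected for the length and GC content of transcripts, the W12 value against D0 was 0.96 (adjusted P = 0.0171), and the W12 value against W6 was -0.50 (adjusted P = 0.218).

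Tgfb2, the isoform of lowest level here, lies on chromosome 1 at 186622792 to 186705989. Its TPM was 1.91 and 3.41 at D0, 2.61 and 3.45 at W1, 2.79 and 1.91 at W2, 0.156 and 0.319 at W6, and 1.44 and 1.21 at W12. W6 was below every other library, and D0, W1 and W2 overlapped. The log2 change from D0 to W6 was -1.54 ± 0.27 (SE; limma adjusted P = 0.00401) and from W2 to W6 -1.43 (adjusted P = 0.0138). The former was -1.24 without D0 replicate 2 (adjusted P = 0.0264), and the latter was lost without W2 replicate 1 (adjusted P = 0.12) or 2 (adjusted P = 0.0564). From W6 to W12 Tgfb2 rose by 0.91 (adjusted P = 0.0468), a call that 7 of 12 alternatives ended, leaving out any of the 4 libraries among them, with adjusted P from 0.063 to 0.20. The W2 value against D0 was -0.11 (adjusted P = 0.827). The W12 value against D0 was -0.63 (95% interval -1.25 to -0.01; adjusted P = 0.0929), which became -0.93 without D0 replicate 1 (adjusted P = 0.0334) and -0.33 without D0 replicate 2 (adjusted P = 0.432).

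The mix of the 4 ligand mRNAs therefore differed between timepoints. Tgfb1 made up 77.1% and 75.7% of their summed TPM at D0, Tgfb3 14.5% and 12.2%, and Inhba 1.05% and 1.00%. At W2 Tgfb3 made up 36.0% and 38.0%. At W12 Inhba made up 79.7% and 67.1% and Tgfb1 14.5% and 22.6%. The summed TPM itself was 25.9 and 30.8 at D0 and 81.2 and 68.1 at W12, and the W12 sum was above every other library. TPM are corrected for transcript length, which lets levels of different genes be set side by side only roughly. The further correction for length and GC content moved some changes, such as those of Tgfb3 and Tgfbr2 at W12. These shares, and the ratios of genes given below, were not recomputed with it.

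**Figure D3:**
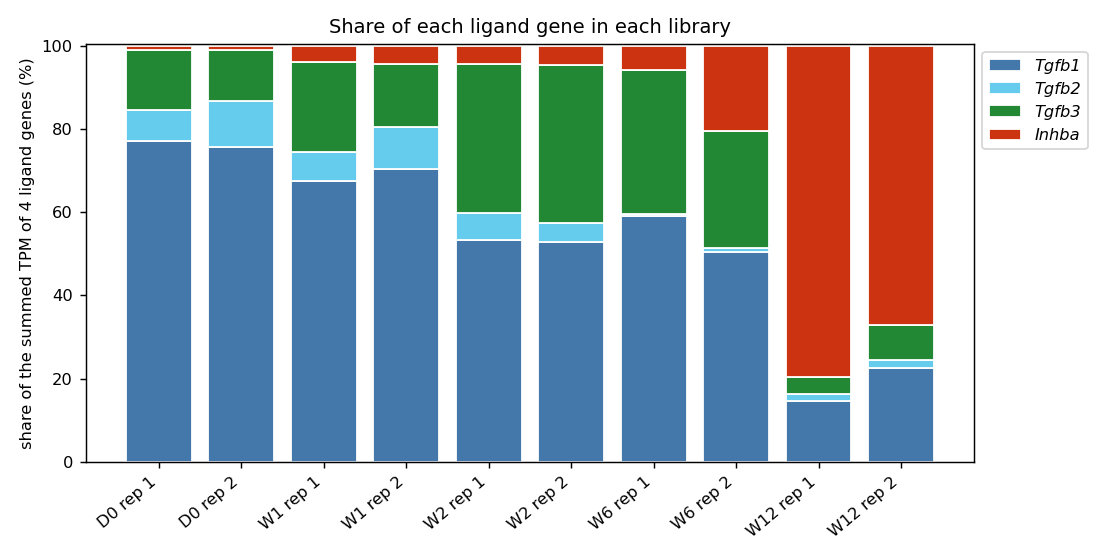
Share, in percent, of Tgfb1, Tgfb2, Tgfb3 and Inhba in their summed TPM, with 1 stacked bar for each library. Tgfb1 was the largest share in each library up to W6, at 50.5% to 77.1%, and Inhba the largest in both W12 libraries.

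Among the receptors, Tgfbr2 encodes the type II receptor, which binds TGF-β first, and lies on chromosome 9 at 116084293 to 116175360. Its TPM was 29.2 and 50.4 at D0, 20.6 and 17.7 at W1, 18.2 and 15.53 at W2, 17.0 and 16.8 at W6, and 12.6 and 14.1 at W12. All 8 induced libraries were below both D0 libraries, W2 overlapped with W1 and with W6, and W12 was lowest. The log2 change from D0 was -0.97 ± 0.24 (SE) at W1 (limma adjusted P = 0.0386), -1.14 at W2 (adjusted P = 0.0151), -1.14 at W6 (adjusted P = 0.0087) and -1.46 at W12 (adjusted P = 0.00192). These comparisons share the D0 libraries. A fit to only the 4 libraries compared ended the calls at W1 (adjusted P = 0.187), W2 (adjusted P = 0.101) and W6 (adjusted P = 0.0894). With no filter on level the calls at W1 (adjusted P = 0.143) and W2 (adjusted P = 0.0689) were lost. Without D0 replicate 2 the values were -0.59 at W1 (adjusted P = 0.107), -0.76 at W2 (adjusted P = 0.0432), -0.76 at W6 (adjusted P = 0.0312) and -1.08 at W12 (adjusted P = 0.00614). With the correction for length and GC content the W12 value was -0.59 (adjusted P = 0.0278) and the W6 value -0.78 (adjusted P = 0.00997). The W1 call was also lost without W1 replicate 1 (adjusted P = 0.108) or 2 (adjusted P = 0.237), and the W2 call without W2 replicate 1 (adjusted P = 0.0625) or 2 (adjusted P = 0.119).

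The D0 libraries also stood apart in genes of dissociation stress and early response. The summed TPM of 12 such genes, among them Fosb and Egr1, was 30080 and 47170 at D0 and 5595 to 12970 later, and 9 of the 12 were lower at W1 than at D0 (background 4.1% lower). On leaving out D0 replicate 2 this was 7 (background 3.41%), with Fosb (adjusted P = 0.055) and Jun (adjusted P = 0.0781) lost. D0 replicate 2, with the higher sum, was also the higher D0 library for every gene of the 10 except Smad2, though for Tgfb3 only by 3.76 against 3.74 TPM. The share of all genes that were higher in it was not counted, so this is not a trait of these genes. That library also went against its male label. The part of this difference in the values of these genes was not tested.

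Tgfbr3 encodes betaglycan, a co-receptor that presents TGF-β ligands to the type II receptor and also binds inhibin, and lies on chromosome 5 at 107106570 to 107289629. Its TPM was 15.9 and 24.8 at D0, 19.6 and 22.1 at W1, 24.1 and 24.2 at W2, 9.74 and 8.45 at W6, and 4.68 and 5.16 at W12. D0 overlapped with W1 and W2, W6 was below all of these and W12 was lower again. The log2 change was 0.27 from D0 to W2 (adjusted P = 0.438), -1.05 ± 0.21 (SE) from D0 to W6 (limma adjusted P = 0.00756) and -1.82 from D0 to W12 (adjusted P = 0.000373), the largest fall of the 10 genes on the scale of log2(TPM + 1). As a ratio of mean TPM to D0, Tgfb2 at W6 (0.0894) was lower than Tgfbr3 at W12 (0.242). The W6 and W12 values were -0.74 (adjusted P = 0.0328) and -1.51 (adjusted P = 0.00155) without D0 replicate 2. From W2 to W6 it was -1.32 (adjusted P = 0.00803), and without W2 replicate 1 or 2 the adjusted P was 0.0732 or 0.0614. The further change from W6 to W12 was -0.77 (adjusted P = 0.0374), and 9 of 13 alternatives ended its call, leaving out any of the 4 libraries among them, with adjusted P from 0.0535 to 0.189 (-0.43 after the correction for length and GC content).

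Tgfbr1 encodes the type I receptor kinase that phosphorylates SMAD2 and SMAD3, and lies on chromosome 4 at 47353222 to 47414931. Its TPM ran from 5.04 in W6 replicate 1 to 8.40 in W1 replicate 1, and the neighbours in the order of means (W6, W12, W2, D0, W1) all overlapped. The W12 value against D0 was -0.13 on the log2 scale, with a 95% interval of -0.64 to 0.38 (limma adjusted P = 0.674). The ratio of Tgfbr2 to Tgfbr1 TPM was 5.01 and 6.05 at D0, 1.92 to 3.37 in all later libraries, and 1.92 and 2.33 at W12. The summed TPM of the 3 receptor genes was 50.9 and 83.5 at D0 and 23.8 and 25.3 at W12.

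Of the SMAD genes, Smad3 was highest at D0 and lowest at W12. SMAD3 is the receptor-activated SMAD that binds DNA directly, and its gene lies on chromosome 9 at 63646767 to 63757994. The TPM was 4.92 and 10.4 at D0, 5.58 and 4.77 at W1, 3.91 and 3.46 at W2, 3.33 and 2.00 at W6, and 2.52 and 2.35 at W12. D0 overlapped with W1, the later timepoints were below both, and W6 and W12 overlapped. The log2 change from D0 was -0.81 at W2 (limma adjusted P = 0.12), -1.19 ± 0.32 (SE) at W6 (adjusted P = 0.0217) and -1.26 at W12 (adjusted P = 0.0128). Without D0 replicate 2 these last values were -0.72 (adjusted P = 0.124) and -0.79 (adjusted P = 0.0732), and neither passed. The W6 call was also lost without W6 replicate 2 (adjusted P = 0.101) and the W12 call without W12 replicate 1 (adjusted P = 0.0603) or 2 (adjusted P = 0.0666), and the W2 value was -1.28 without D0 replicate 1 (adjusted P = 0.0194) and -0.34 without D0 replicate 2 (adjusted P = 0.48).

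Smad4 encodes the common partner that SMAD2 and SMAD3 share with the SMADs of bone morphogenetic protein (BMP) signalling, and lies on chromosome 18. It was the most abundant of the 10 genes in mean TPM at D0, W1, W2 and W6. Its TPM was 49.5 and 98.9 at D0, 92.7 and 79.9 at W1, 105.5 and 100.9 at W2, 66.4 and 59.5 at W6, and 38.5 and 38.8 at W12. The D0 libraries differed so much that they overlapped with W1 and spanned W6, while W12 was below every library. Smad4 changed by -0.84 ± 0.27 (SE) on the log2 scale from D0 to W12 (limma adjusted P = 0.0342). Without D0 replicate 2 this value was -0.35 (adjusted P = 0.121), without D0 replicate 1 it was -1.33 (adjusted P = 0.000495), and in all 8 of 13 alternatives ended the call, leaving out either W12 library and both rescalings among them, with adjusted P from 0.0571 to 0.125. The value from D0 to W2 was 0.55 (adjusted P = 0.201), and 1.04 without D0 replicate 2 (adjusted P = 0.00658). From D0 to W1 it was 0.29 (adjusted P = 0.546), and 0.79 without D0 replicate 2 (adjusted P = 0.0226), so that the D0 libraries decided all these values. The changes from W2 to W6 (-0.71, adjusted P = 0.105) and from W6 to W12 (-0.69, adjusted P = 0.108) did not pass although the libraries did not overlap.

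Smad2, the other receptor-activated SMAD of this branch, also on chromosome 18, stayed between 39.7 and 53.2 TPM in all 10 libraries. The value against D0 was -0.36 at W1 (limma adjusted P = 0.179) and -0.20 at W12 (95% interval -0.54 to 0.15; adjusted P = 0.317). The ratio of Smad2 to Smad3 TPM was 10.8 and 4.93 at D0 and 18.1 and 19.3 at W12. The ratio of Smad4 to Smad3 TPM was 10.1 and 9.51 at D0, 27.0 and 29.1 at W2, and 15.3 and 16.5 at W12.

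Counted over the 10 genes, 1 passed at W1 against D0, where 9.89% of all genes tested passed, and it was lower (background 5.79% higher and 4.1% lower). At W2 2 passed (background 15.7%), 1 higher (9.06%) and 1 lower (6.64%). At W6 6 passed (background 32.4%), 2 higher (18.3%) and 4 lower (14.1%). At W12 6 passed (background 43.0%), 1 higher (17.9%) and 5 lower (25.1%). Against W2, 2 genes passed at W6 (background 16.3%), none higher (7.99%) and 2 lower (8.31%). Against W6, 4 passed at W12 (background 20.2%), 2 higher (6.66%) and 2 lower (13.5%). Of these calls only that of Inhba was kept under every alternative. That of Tgfb2 was ended by 7 of 12 alternatives, that of Tgfb3 by 6 of 13 and that of Tgfbr3 by 9 of 13. The libraries of the groups did not overlap for 5 of the 10 genes at W1 (background 55.2%), 6 at W2 (61.8%), 7 at W6 (62.5%) and 8 at W12 (74.7%) against D0, for 6 at W6 against W2 (65.0%) and for 7 at W12 against W6 (60.3%), so these shares lay near those of all genes. The median log2 change of the 10 genes was 0.12, 0.01, -0.28 and -0.64 at W1, W2, W6 and W12 against D0, beside 0.09, 0.06, 0.08 and -0.08 for all genes tested. From W2 to W6 it was -0.38, beside 0.01 for all genes, and from W6 to W12 -0.20, beside -0.16. Without D0 replicate 2, 1, 3, 5 and 3 genes passed at the 4 timepoints, where 7.86%, 10.9%, 18.0% and 28.5% of all genes passed in that fit, but they were not the same genes. At W1 Tgfbr2 (lower) was lost and Smad4 (higher) was gained, at W2 Smad4 was gained, at W6 Smad3 was lost, and at W12 Tgfb1, Smad3 and Smad4 were lost. A fit to only the 4 libraries of each comparison, which has a less certain estimate of the spread, called 1 gene at W6 (8.34% of all genes) and 3 at W12 (30.1%).

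**Figure D4:**
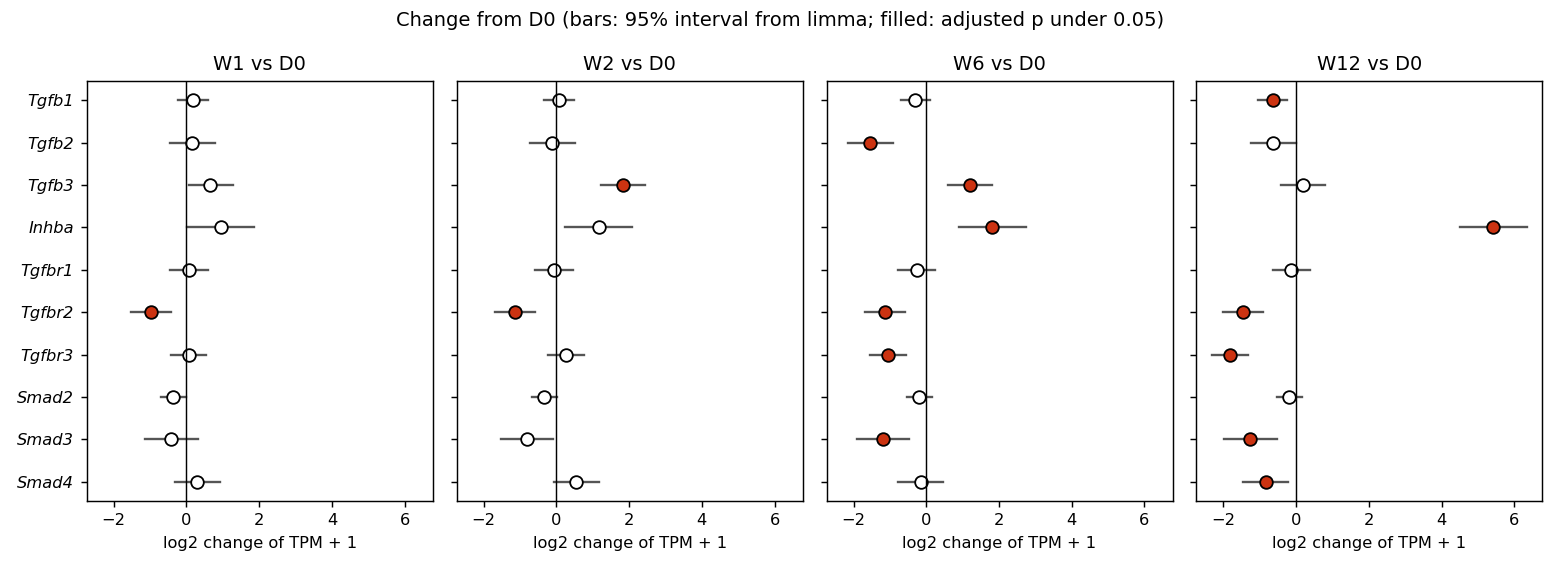
Change from D0 in log2(TPM + 1) on the horizontal axis for the 10 genes at W1, W2, W6 and W12, with 95% intervals from limma (bars) and filled points where the adjusted P was under 0.05. At W12 Inhba lay at 5.42, and the 5 other genes that passed lay between -1.82 and -0.64.

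Another ligand gene of the activin family, Inhbb, encodes the βB chain of activin B and was highest at W1 in mean TPM. Its TPM was 2.75 and 2.37 at D0, 26.9 and 35.2 at W1, 27.6 and 25.1 at W2, 25.6 and 21.6 at W6, and 8.83 and 11.8 at W12. Every induced library was above D0, with a log2 rise of 3.16 at W1 (limma adjusted P = 0.000116), 2.94 at W2 (adjusted P = 0.000109) and 1.66 at W12 (adjusted P = 0.000459). Of the 6 other ligand genes listed, 2 reached the minimum for testing, and Inhbb passed in each contrast with D0. The other, Inha, the inhibin α chain, passed in no contrast with D0 and is named outside the selection rule given below. Both were lower at W12 than at W6, Inhbb by 1.13 (adjusted P = 0.00787) and Inha by 0.96 (adjusted P = 0.0482).

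Activin receptors and antagonists also differed. Of 7 other receptor and co-receptor genes tested (10 listed), 1 was higher and 1 lower at W12 than at D0. For this list and those that follow, the background at W12 against D0 was 17.9% of all genes tested higher and 25.1% lower, or 11.6% and 16.9% without D0 replicate 2, and these counts are descriptions. The lower was Acvr2a, an activin type II receptor, at 16.6 and 23.6 TPM at D0 and 7.55 and 7.11 at W12, a log2 change of -1.32 (limma adjusted P = 0.00153). The higher was Eng, endoglin, a co-receptor best known in endothelium, at 0.158 and 0.133 TPM at D0 and 3.52 and 10.7 at W12 (log2 change 2.67, adjusted P = 0.00154), beside the endothelial sums of 90.5 and 210.8. Before W12 Eng was at most at 0.825 TPM, so it reached the minimum for testing only through its W12 values. Acvr2b, the other activin type II receptor, was higher at W2, by 1.38 (adjusted P = 0.00656).

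Of 6 antagonist genes tested (8 listed), 3 were higher and 1 lower at W12, and 2 and 1 without D0 replicate 2. Fst, follistatin, which binds and neutralises activins, was at 91.8 and 33.3 TPM at D0, 304 and 270 at W2, and 152 and 250 at W12. Its log2 rise from D0 was 2.35 at W2 (limma adjusted P = 0.0204) and 1.80 at W12 (adjusted P = 0.0248), and neither passed without D0 replicate 2 (1.63, adjusted P = 0.0954, and 1.08, adjusted P = 0.167). The ratio of Fst to Inhba TPM was 337 and 108 at D0 and 2.35 and 5.48 at W12. Fstl3, a follistatin relative, was lower at W12, with a log2 change of -1.86 (adjusted P = 0.00142). The others higher at W12 were Fstl1 (3.17) and the small proteoglycan gene Bgn (2.20), which connective tissue also expresses. Fstl1, too, reached the minimum for testing only through its W12 values.

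The genes that store and release latent TGF-β moved in both directions, with 4 higher and 5 lower at W12 of 13 tested (16 listed), or 4 and 4 without D0 replicate 2. Ltbp4, a latent TGF-β binding protein, was lower, with a log2 change of -2.43 (limma adjusted P = 0.000679). Thbs1, thrombospondin 1, an activator of latent TGF-β, was at 787 and 1679 TPM at D0 and 53.9 and 61.3 at W12, a log2 change of -4.30 (adjusted P = 0.000129). Its fall was already -2.67 at W2 (adjusted P = 0.00396). Like the sum of the dissociation-stress genes, Thbs1 was higher in D0 replicate 2 than in replicate 1 and lower by W1, at 329 and 192 TPM. The part of that stress in its fall was not tested. Higher at W12 were the gelatinase gene Mmp9 (5.35) and Lrrc32 (2.30), which holds latent TGF-β at the cell surface. Itgb8, the β chain of a TGF-β-activating integrin, was at 1.60 and 0.845 TPM at D0 and 11.004 and 8.45 at W2, a rise of 2.28 (adjusted P = 0.000495).

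Among 14 SMAD inhibitors and corepressors, all tested, 3 were higher and 3 lower at W12, together the same share as among all genes tested (43.0%), and the lower count was 2 without D0 replicate 2. Lower were the corepressor gene Ski (-1.71) and the ubiquitin ligase gene Nedd4l (-1.63), and higher were the inhibitory Smad6 (1.38) and Pmepa1 (1.14), a target and inhibitor of the pathway. Skil, which encodes the corepressor SnoN, was lower at W2, with a log2 change of -0.95 (limma adjusted P = 0.0308; -0.73 and 0.131 without D0 replicate 2), and higher at W12, with 28.6 and 37.4 TPM and a log2 change of 0.90 from D0 (adjusted P = 0.0158). Smad7, the inhibitory SMAD of this branch, named here after its values were seen, did not pass at W12 (-0.76, adjusted P = 0.15). Of 7 SMAD partners tested (9 listed), 1 was higher at W12, Fkbp1a, whose product binds the type I receptor (1.02), and 5 were lower, among them Ep300 (-1.25), Hgs (-0.90) and Sp1 (-0.69), and without D0 replicate 2 the lower count was 2, with Hgs (adjusted P = 0.206), Sp1 (adjusted P = 0.112) and Crebbp (adjusted P = 0.162) lost. Of the BMP-specific SMAD genes, Smad1 was lower at W12 (-0.77, adjusted P = 0.011; without D0 replicate 2, -0.58 and 0.0632), and 2 of the 3 listed were tested.

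**Figure D5:**
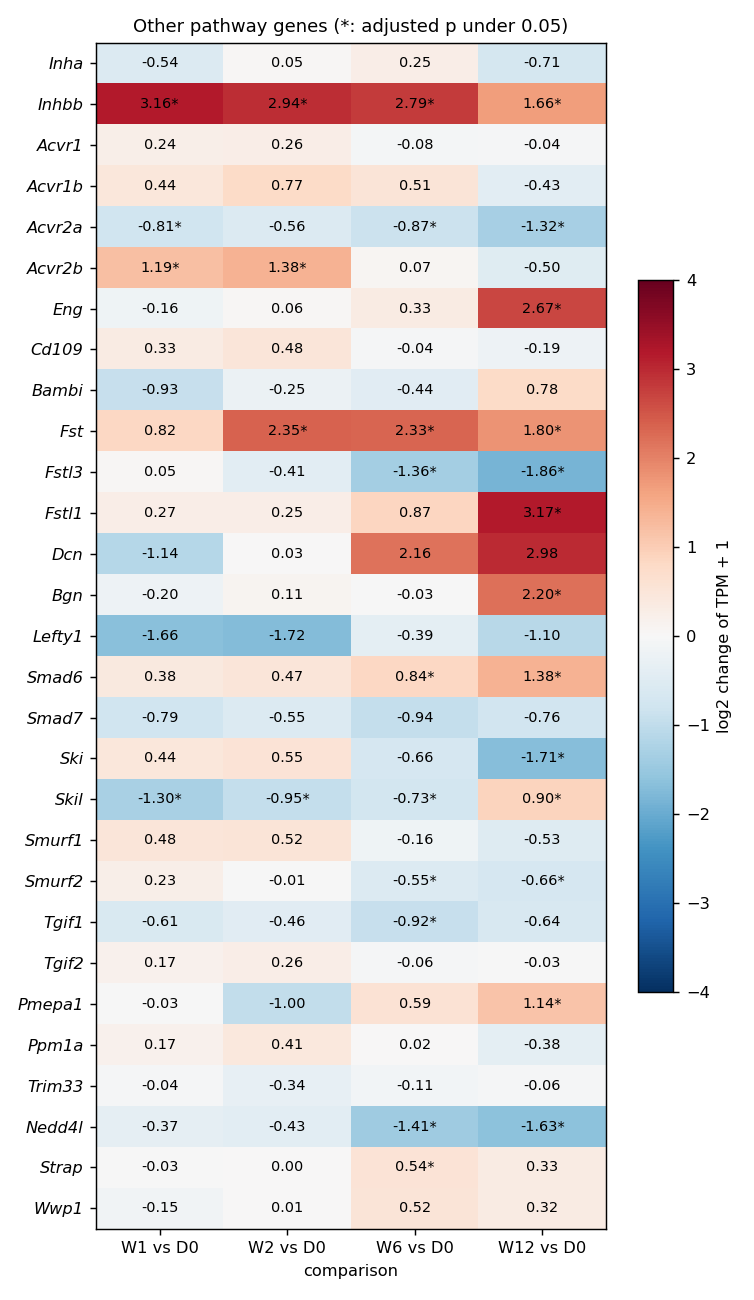
Log2 change of TPM + 1 from D0, as colour and number, for every tested gene of the other ligand, receptor, antagonist and SMAD inhibitor lists at the 4 timepoints, with an asterisk where the adjusted P was under 0.05. Inhbb and Fst were positive at every timepoint, whereas Acvr2a was negative at every timepoint.

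Genes described as TGF-β targets in epithelia did not move together. Of 24 listed and 19 tested, 3 were higher and 5 lower at W2 (background 9.06% and 6.64%), 2 higher and 7 lower at W6 (18.3% and 14.1%), and 6 higher and 7 lower at W12 than at D0 (17.9% and 25.1%). Their median log2 changes were 0.07, -0.64 and -0.18, beside 0.06, 0.08 and -0.08 for all genes. The counts on leaving out D0 replicate 2 were 2 higher and 4 lower at W2 (background of that fit 6.35% and 4.51%), 4 and 5 at W6 (10.01% and 7.96%), and 6 and 5 at W12 (11.6% and 16.9%). The list holds Tgfb1 itself and genes of the other lists, such as Ski, Skil and Pmepa1. The matricellular genes Ccn2 and Ccn1 went in opposite directions. Ccn2 was at 7.27 and 15.3 TPM at D0, 385 and 226 at W2, and 45.0 and 52.1 at W12, a log2 rise of 4.67 at W2 (limma adjusted P = 0.000113) and 2.09 at W12 (adjusted P = 0.00162). Ccn1 was at 2805 and 4956 TPM at D0 and 157 and 252 at W12, a log2 change of -4.22. As with the sum of the dissociation-stress genes, Ccn1 and Bhlhe40 were higher in D0 replicate 2 than in replicate 1 and below D0 by W1. The part of that stress in them was not tested. The transcription factor gene Bhlhe40 was lower at W12 (-1.72; without D0 replicate 2, -1.23, adjusted P = 0.111), and Mmp9, listed here too, was higher.

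The genes whose levels were most like those of Inhba over the 10 libraries, by Pearson's r of log2(TPM + 1), were Optn (r = 0.98), Cpa4 (0.98) and Mgp (0.98). Mgp, matrix Gla protein, was at 0.323 and 0.447 TPM at D0, 3.19 and 7.92 at W6, and 27.0 and 26.3 at W12. For Tgfbr3 they were Sec14l4 (0.99), Arhgap33 (0.99) and Ablim3 (0.99). Sec14l4 was at 15.2 and 26.4 TPM at D0, 27.6 and 24.1 at W2, and 3.22 and 3.53 at W12. These are descriptions over libraries that share timepoints, taken as the highest of all genes tested.

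The state of the epithelium moved over the same timepoints. Of 8 basal keratinocyte markers, 6 were lower at W12 than at D0, among them Krt15, and of 9 suprabasal markers 5 were higher and 1 lower. Of the 5 suprabasal genes, Sbsn was lost without D0 replicate 2 (adjusted P = 0.113). The summed TPM of the suprabasal markers was 6459 and 2159 at D0 and 15870 and 13520 at W12. Of 10 hair follicle stem cell markers, 4 were higher and none lower at W2 (background 9.06% higher and 6.64% lower), and 2 were higher and 3 lower at W12. The 2 higher at W12 were Tbx1 and Cd34, and Cd34, whose product the sort excluded, rose there together with the endothelial markers. Leaving out D0 replicate 2 left 2 higher at W2 (background 6.35%), with Tcf3 (adjusted P = 0.0954) and Tcf4 (adjusted P = 0.0525) lost, and 1 lower at W12, with Nfatc1 (adjusted P = 0.123) and Krt24 (adjusted P = 0.0766) lost. The part of these shifts in the 10 genes' values was not tested.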

How the data were processed

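RNA-seq of sorted EpdSCs was deposited as 1 table of TPM, with 10 libraries over 5 timepoints. The authors trimmed reads with Skewer, quantified them with Salmon 1.4.0 against GENCODE transcripts of GRCm38 with the transgene added, and summed transcripts to genes with Tximport 1.12.3 to give TPM. Each library sums to 1000000 TPM. TPM keep no depth, so the depth of each library and its counting error are unknown. The authors' table of 4 placode libraries holds only their own comparison (normalized means, fold changes, errors, test statistics and p-values) and was not used.

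Of the 54332 genes, the 13110 whose mean reached 1 TPM were tested on log2(TPM + 1) with limma 3.58.1 in R 4.3.3, fitting 1 mean per timepoint to all 10 libraries together, with an eBayes variance trend and Benjamini-Hochberg adjustment over all genes tested. A gene passed at an adjusted P under 0.05. Comparisons with D0 share the 2 D0 libraries. Groups and replicate numbers came from the labels. On simulated data with 200 of 13110 genes changed between D0 and W12, the fit called 82% of changes of 2 on the log2 scale and 44% of changes of 1, with 7 unchanged genes called. In the data 43.0% of genes passed at W12, and the simulated errors were independent, so these rates need not hold for the data.

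The 10 genes and the other gene lists were chosen with earlier results of these data known. Of each other list the text names up to 4 genes that passed at W12 against D0 with the largest change and up to 2 at W2, and for the largest rise and fall among the 10 genes the 3 genes with the highest r. Alternatives were a pseudocount of 0.1, no filter and a minimum of 5 TPM, quantile normalization, median-ratio scaling, no eBayes trend, a fit to only the 4 libraries compared, a replicate block, a minimum log2 change of 1, leaving out each library and, added after seeing the data, a loess correction on the length and GC content of transcripts and crossed replicate numbers. Gene positions are from GENCODE annotation of GRCm38 and promoters from RefSeq. Exons of Tgfb2, Tgfb3 and Tgfbr3 overlap those of minor annotated transcripts, which stayed below 0.3 TPM, so that their reads may be split. Figures were drawn with matplotlib 3.10.9.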

Additional observations from a re-analysis of the deposited data

How the results depend on the processing

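The rises of Inhba at W12 (against D0 and against W6) and of Tgfb3 at W2, and the falls of Tgfb2 at W6, Tgfbr2 at W12 and Tgfbr3 at W12, against D0, kept direction and call under every alternative run, although the size of the Tgfbr2 value ranged from -1.84 (without D0 replicate 1) to -0.59 (length and GC correction), and with a pseudocount of 0.1 the Tgfb2 value was -3.02. Over all recomputed changes of the 10 genes (768), 656 kept direction and side of the threshold, 61 were no longer past it, 13 came past it and 38 changed sign. The number of the 10 genes past the threshold moved by more than 1.5 times in the cases that follow, with smaller moves in others, and the causes were not tested beyond fewer libraries or more genes entering a fit. At W1 (1 gene) it was 2 with a pseudocount of 0.1 and 0 with no filter, with the replicate block and with a minimum log2 change of 1, and 0 to 1 on leaving out a library. At W2 (2) it was 1 with no filter, and 1 to 3 on leaving out a library. At W6 (6) it was 1 from only the 4 libraries compared, and 5 to 7 on leaving out a library. At W12 (6) it was 3 from only the 4 libraries, and 3 to 7 on leaving out a library. For W6 against W2 (2) it was 1 with a minimum of 5 TPM, and 0 to 3 on leaving out a library. For W12 against W6 (4) it was 1 with no filter or from only the 4 libraries, 2 with median-ratio scaling, with a minimum log2 change of 1 or with the length and GC correction, and 1 to 2 on leaving out a library. By the F test (8) it was 5 to 8 on leaving out a library, where a lone library is assumed to vary like the other groups.

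Of the values printed in the text, those that did not pass and changed sign on leaving out a library were Tgfb2 at W2 (-0.41 to 0.19, with 0.08 without W2 replicate 2), Smad4 at W1 (-0.20 without D0 replicate 1, to 0.79), Tgfbr3 at W2 (-0.04 without D0 replicate 1, to 0.57), Tgfb3 at W12 (-0.14 without W12 replicate 2, to 0.51) and Tgfbr1 at W12 (-0.35 to 0.10, the latter without D0 replicate 2), all against D0, and Inhba at W6 against W2 (-0.05 without W6 replicate 2, to 1.38). Values shown only in the plot of changes also changed sign, among them Smad3 at W1 (-0.42, and 0.06 without D0 replicate 2), Smad4 at W6 (-0.15 and 0.34) and Tgfbr1 at W2 (-0.06 and 0.16).

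Same-numbered libraries did not deviate together (correlations of -0.13 to 0.09), so the numbers do not pair them. With the replicate block, 0, 2, 6 and 6 of the 10 genes passed at W1, W2, W6 and W12 against D0, 2 at W6 against W2, 3 at W12 against W6 and 7 by the F test. The calls of Tgfbr2 at W1 (adjusted P = 0.06) and Tgfb2 at W12 against W6 (adjusted P = 0.0652) were among those lost. With crossed numbers 1, 6 and 3 genes passed at W1 and W6 against D0 and at W12 against W6. Over all genes, the number past the threshold ranged from 377 to 1773 at W1, 652 to 2568 at W2, 1094 to 5047 at W6, 3156 to 6168 at W12, 207 to 2626 for W6 against W2, 761 to 2846 for W12 against W6 and 5008 to 8145 by the F test, with 1296, 2058, 4251, 5642, 2137, 2642 and 7541 as reported. The share of these that were higher was 58.6% at W1, 57.7% at W2, 56.5% at W6, 41.7% at W12 and 33.0% for W12 against W6, and 44.8%, 45.7%, 45.2%, 44.3% and 55.8% with median-ratio scaling. The unknown depth limits the low values most, such as Inhba at D0 and Tgfb2 at W6.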
